A study of Mus musculus with 8 samples.

Results

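C/EBPα occupancy in mouse liver was compared between livers in which Trib1 was targeted and livers given extra C/EBPα. The comparison used the 2 peak lists labelled Trib1_LSKO and the 2 labelled AAV_Cebpa, here called the perturbed lists. Their 243105 peaks, each 200 bp wide, were joined into sites wherever peaks overlapped by 1 bp or more. This gave 96721 sites, of 113353 sites formed in the same way from all 8 lists of the study. The median site spanned 214 bp and the widest 582 bp, and no list had more than 1 peak in a site. A site was called shared when all 4 perturbed lists held a peak there. It was called knockout-only when both Trib1_LSKO lists and neither AAV_Cebpa list held one, and overexpression-only in the reverse case. Positions are those of the mouse build mm9, counted from 1, and sites were assigned to no gene.

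C/EBPα is a transcription factor of the basic leucine zipper family that binds promoters and enhancers of hepatocyte genes, among them genes of lipid, glucose and nitrogen metabolism. Trib1 encodes Tribbles-1, a pseudokinase without ordinary kinase activity. Tribbles-1 binds C/EBPα and presents it to the ubiquitin ligase COP1, which marks it for degradation. Loss of Tribbles-1 and delivery of C/EBPα from a vector are therefore both manipulations aimed at the same protein.

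The libraries were chromatin immunoprecipitations sequenced with 1 C/EBPα antibody (sc-61) from frozen liver crosslinked in 1% formaldehyde. All mice were labelled C57B/6, were 8 to 10 weeks old, ate chow and were fasted for 4 hours. Trib1_LSKO mice were Trib1 flox/flox and were injected (IP) with a vector for Cre recombinase made from adeno-associated virus (AAV), at 1.5e11 gc, and their controls, Trib1_WT, were flox/flox mice given the same dose of empty vector. AAV_Cebpa mice were wild type and received 1e12 gc of a vector for C/EBPα, and their controls, AAV_Null, received 1e12 gc of empty vector. Each group had 2 libraries. The perturbed groups thus differed in Trib1 genotype, in vector dose and in the vector's content at once, and only the controls of each experiment bear on which of these a difference goes with. The labels name no promoter in the vectors and do not say whether replicates were separate animals, so a p-value may measure technical spread alone. The lists contain no RNA or protein measurement. Loss of Trib1, the amount of C/EBPα and the cell types in the tissue were therefore not checked.

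The experiments stood apart before any treatment was considered. On chromosome Y, the Trib1_WT lists held 13 and 14 peaks and the Trib1_LSKO lists 9 and 12, while all 4 lists of the AAV_Null and AAV_Cebpa groups held 0. At the 501 sites on chromosome X that all 8 lists held, median percentiles among the sites of all 8 lists were 25.8 to 26.4 in the 4 lists from flox/flox mice and 30.8 to 33.1 in the 4 lists from wild-type mice. Over all X peaks of each list the order was reversed. Their median percentiles within the list were 32.0 to 34.6 in flox/flox mice and 28.9 to 31.9 in wild-type mice, so the direction of the percentiles depends on the sites taken. The share of a list's peaks that lay on X was 2.04% to 2.28% in flox/flox mice and 2.4% to 3.21% in wild-type mice, without overlap. The labels give no sex, so whether it differed between the experiments is not known. A difference in sex could not be told apart from genotype or vector dose in any value compared between the experiments, whether on X, on Y or on autosomes. Counts below were also taken on autosomes alone, where 33140 sites were shared, 4322 were knockout-only and 15043 were overexpression-only. Lists also differed in length and depth. Trib1_LSKO lists held 50075 and 53072 peaks at relative depths of 1.18 and 1.28, and AAV_Cebpa lists held 59564 and 80394 peaks at 1.85 and 2.27, with the shallowest of the 8 libraries set to 1.0. Trib1_LSKO lists held 51573.5 ± 2119.2 peaks and AAV_Cebpa lists 69979.0 ± 14729.0 (SD, n = 2 each), a ratio of 1.36 and a difference of 18405.5. That difference was 7990.5 without AAV_Cebpa replicate 2 and 28820.5 without AAV_Cebpa replicate 1. All AAV_Cebpa values lay above all Trib1_LSKO values, and an exact permutation test (two-sided) gave p = 0.333, the lowest value possible with 2 libraries against 2. The part of depth in this difference was not tested.

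The largest class of sites with a peak in both lists of a group was the shared one. It held 33870 sites, 35.0% of the 96721. These were 79.9% of the 42390 sites called in both Trib1_LSKO lists and 60.6% of the 55874 called in both AAV_Cebpa lists. The control lists, joined in the same way into 75755 sites, had 31899 sites in all 4 lists, or 42.1%. Knockout-only sites numbered 4396, or 4.55% of all sites and 10.4% of those in both Trib1_LSKO lists. Overexpression-only sites numbered 15710, or 16.2% of all sites and 28.1% of those in both AAV_Cebpa lists. The remaining 42745 sites had a peak in 1 list of at least 1 group, 20254 of them in a single AAV_Cebpa list and 8241 in a single Trib1_LSKO list.

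The same count between the control groups ran the other way, as did list length, with 53327 and 54691 peaks in Trib1_WT and 46348 and 49052 in AAV_Null. There, 6324 sites (8.35% of the 75755, and 14.3% of the sites in both Trib1_WT lists) were called in both Trib1_WT lists and no AAV_Null list. Only 2476 sites (3.27%, and 6.55% of the sites in both AAV_Null lists) were called in both AAV_Null lists and no Trib1_WT list. Flox/flox livers thus had more private sites than wild-type livers when both carried empty vector, and fewer when the former carried Cre and the latter C/EBPα. Both vectors changed between these counts. The size of the excess of overexpression-only sites went with list length. With every perturbed list reduced to its 50075 strongest peaks, 29788 sites were shared, 7464 were knockout-only and 9095 overexpression-only. The ratio of overexpression-only to knockout-only sites was then 1.22 in place of 3.57, and overexpression-only sites made up 54.9% of the sites private to 1 group in place of 78.1%. Control lists reduced to 46348 peaks had 4333 sites private to Trib1_WT and 3173 private to AAV_Null.

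Single libraries moved the counts of private sites. Without Trib1_LSKO replicate 1 or replicate 2, a knockout-only site needs 1 peak in place of 2, and 9768 or 7324 sites qualified. Without AAV_Cebpa replicate 2, which had the longest list, 7774 sites were knockout-only. Without AAV_Cebpa replicate 1, 33692 sites were overexpression-only. Overexpression-only sites outnumbered knockout-only sites in each of these cases. The Jaccard index, the number of sites in both lists over the number in either, was 0.698 between the Trib1_LSKO lists and 0.665 between the AAV_Cebpa lists. Across the groups it was 0.532 and 0.470 for Trib1_LSKO replicate 1 with AAV_Cebpa replicates 1 and 2, and 0.511 and 0.463 for Trib1_LSKO replicate 2. Lists of 1 group therefore resembled each other more than any pair across the groups.

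How often a site was called in the other group rose with its strength. Strength is given as the percentile of the authors' signal value within its own list, where 100 is the strongest peak. Of the sites in both Trib1_LSKO lists with a mean percentile of 90 to 100, 99.1% were called in both AAV_Cebpa lists and 0.382% (19 of 4968) in neither. At a mean percentile of 0 to 10, 51.3% were called in both and 27.9% in neither. In the other direction, 97.1% of the strongest AAV_Cebpa sites were called in both Trib1_LSKO lists and 1.41% (93 of 6585) in neither. Of the weakest AAV_Cebpa sites, 15.7% were called in both Trib1_LSKO lists and 69.0% in neither. At every decile, sites of Trib1_LSKO were found in AAV_Cebpa more often than the reverse. The control lists again showed the opposite order: the weakest Trib1_WT sites were found in both AAV_Null lists in 16.6% of cases, and the weakest AAV_Null sites in both Trib1_WT lists in 45.5%. In both comparisons, sites were found more often in the group with the longer lists. These shares were not taken with lists of equal length, so the part of list length was not tested.

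**Figure D1:**
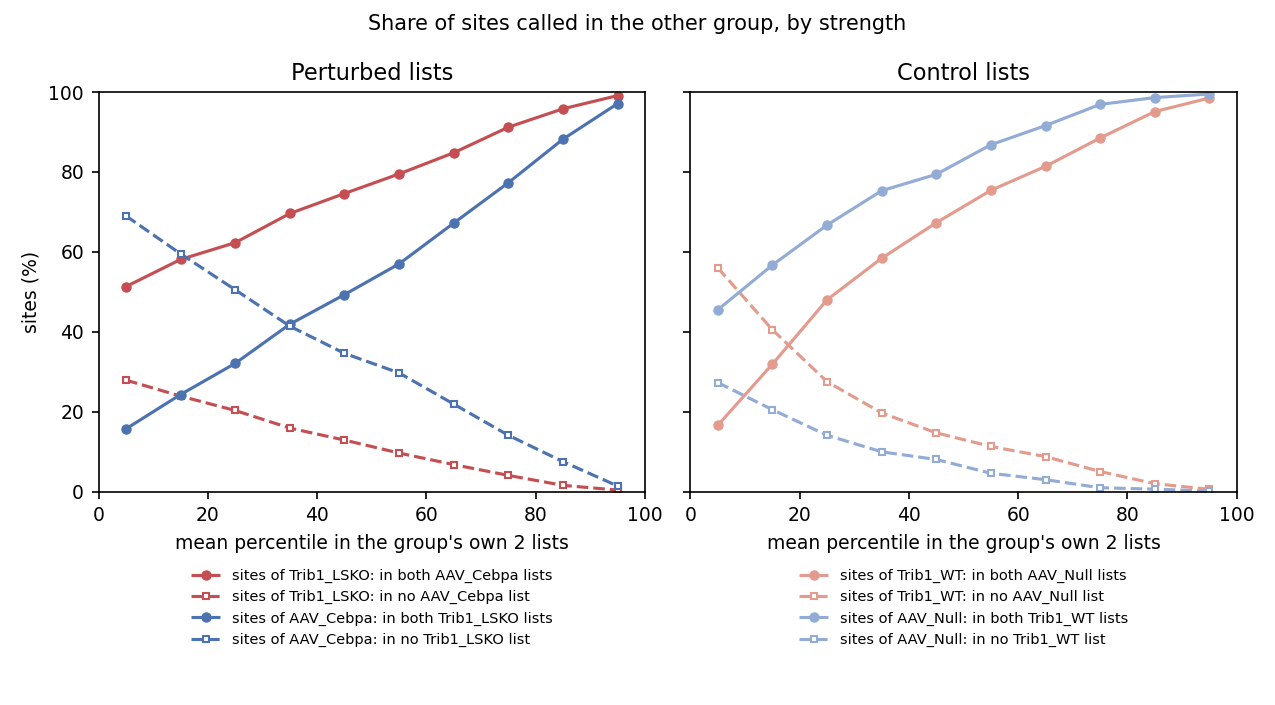
Share of sites (percent) called in both lists (filled circles, solid lines) or in no list (open squares, dashed lines) of the other group, against the mean percentile of the site in its own 2 lists, in bins of 10 points. Sites of Trib1_LSKO reached 99.1% and sites of AAV_Cebpa 97.1% in the strongest bin, and the curves of the perturbed lists (left) and of the control lists (right) have the experiments in opposite order. In each panel, sites were found more often in the group with the longer lists.

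Shared sites had a higher median percentile than the private sites in each perturbed list. Their median percentiles were 63.3 and 65.1 in the Trib1_LSKO lists and 67.9 and 75.2 in the AAV_Cebpa lists, and 18507 of them (54.6%) lay in the stronger 50% of all 4 lists. Knockout-only sites had medians of 30.2 (interquartile range 15.7 to 47.0) and 35.8 (20.4 to 53.8) in the Trib1_LSKO lists. Overexpression-only sites had medians of 27.3 (13.0 to 47.2) and 44.3 (27.0 to 62.8) in the AAV_Cebpa lists. The value in AAV_Cebpa replicate 2 is higher in a list with more weak peaks, so the percentiles of the replicates are not on 1 scale. In the stronger 50% of both of their own lists lay 870 knockout-only sites (19.8%) and 3479 overexpression-only sites (22.1%). In the top 10% of every list that defined their class lay 16 knockout-only sites, 43 overexpression-only sites and 3471 shared sites. These percentiles come from the lists that defined the classes and are a description.

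In the control lists, which the classes did not use, the private sites of the perturbed groups looked unlike each other. Where they were called, knockout-only sites had medians of 46.8 and 48.3 in the Trib1_WT lists and 44.2 and 46.9 in the AAV_Null lists, all above their medians in Trib1_LSKO. Overexpression-only sites, where called, had medians of 17.8 and 20.3 in Trib1_WT and 24.4 and 23.4 in AAV_Null. All were below their medians in AAV_Cebpa, which cover the whole class. The same sites did not always keep this order. At the 230 called in all 4 control lists, medians were 36.6 and 36.7 in Trib1_WT, 40.4 and 38.3 in AAV_Null and 36.7 and 49.9 in AAV_Cebpa. At the 269 called in AAV_Null only, they were 24.4 and 27.4 in AAV_Null and 33.3 and 43.5 in AAV_Cebpa. Shared sites had medians of 67.5 to 68.8 in the 4 control lists.

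**Figure D2:**
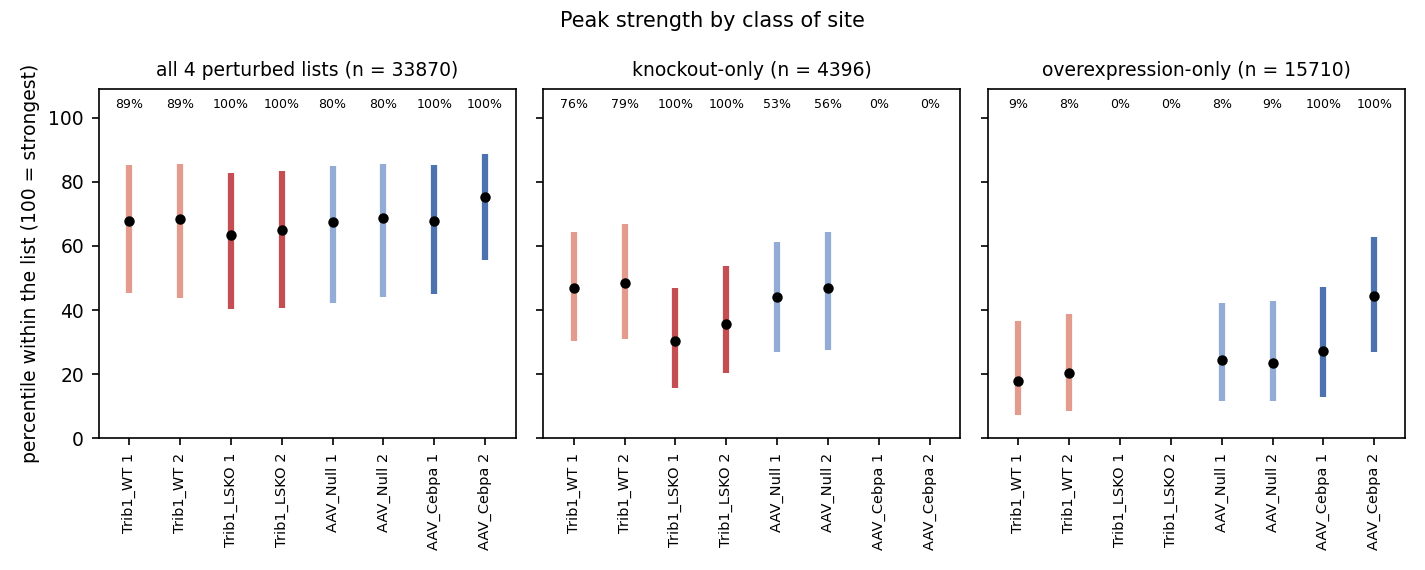
Percentile of the peak signal within each list for shared, knockout-only and overexpression-only sites, with the median (points) and the interquartile range (bars) over the sites called in that list, and the share of the class called there printed above. Knockout-only sites had medians of 44.2 to 48.3 in the control lists, and overexpression-only sites 17.8 to 24.4, at about 8% to 9% of sites called.

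Most knockout-only sites were also called in control livers. Of the 4396, 1753 (39.9%, 95% Wilson interval 38.4% to 41.3%) were called in all 4 control lists, and 3062 (69.7%) in both Trib1_WT lists, against 43.3% of all sites. All sites include those called in a single list, whereas knockout-only sites need both Trib1_LSKO lists. Shared sites need both as well, and 84.8% of them were in both Trib1_WT lists, a higher share than of knockout-only sites. A further 763 (17.4%, 16.3% to 18.5%) were called in both Trib1_WT lists and no AAV_Null list, the state that goes with the experiment. Only 476 (10.8%, 9.94% to 11.8%) were called in no control list, and 58 (1.32%) in both AAV_Null lists alone. The other 1346 (30.6%) had mixed calls. Among all 96721 sites, 32.3% were called in all 4 control lists, 5.41% in Trib1_WT only, 1.49% in AAV_Null only and 39% in no control list. The intervals cover counting of sites only. Split by the AAV_Null lists, the controls of the C/EBPα vector, 1981 knockout-only sites (45.1%) were called in both and absent with the vector, while 1595 (36.3%) were called in neither AAV_Null list, so that no list of the second experiment held them. Of all sites, 36.6% were called in both AAV_Null lists and 50.8% in neither, and of shared sites 74.5% and 15.1%.

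Overexpression-only sites were mostly absent from the control lists. Of the 15710, 12649 (80.5%, 79.9% to 81.1%) were called in no control list. AAV_Null only accounted for 269 (1.71%), Trib1_WT only for 209 (1.33%) and all 4 control lists for 230 (1.46%), and 2353 (15%) had mixed calls. In neither AAV_Null list were 13783 (87.7%, against 50.8% of all sites), and 623 (3.97%, against 43.3%) were in both Trib1_WT lists yet in neither Trib1_LSKO list. All sites include those of the Trib1_LSKO lists, whereas overexpression-only sites must be missing there, so these shares are not of like sites. Overexpression-only sites without a control peak had medians of 27.3 and 45 in the AAV_Cebpa lists, close to those of the whole class. Of the shared sites, 24223 (71.5%) were called in all 4 control lists and 1832 (5.41%) in none, and the latter had medians of 34.5 and 30.5 in Trib1_LSKO and 57.0 and 68.1 in AAV_Cebpa. With lists of equal length, knockout-only sites were in all 4 control lists in 38.4% of cases, in Trib1_WT only in 12.2% and in none in 14.5%, and overexpression-only sites were in no control list in 83.7%.

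**Figure D3:**
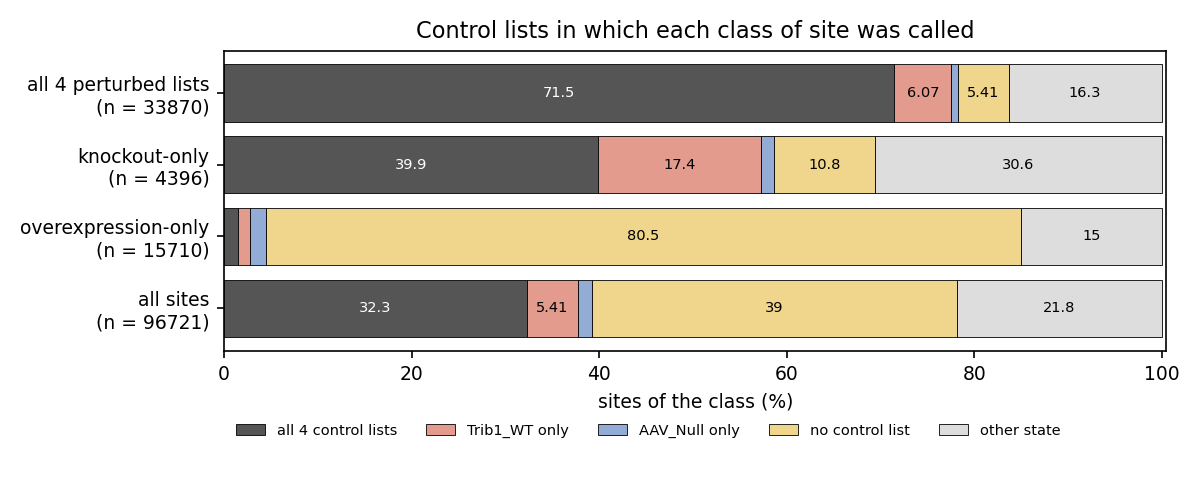
Control lists in which the sites of each class were called, as a percentage of the class (stacked bars that add up to 100). The bar of overexpression-only sites is mostly the state without a control peak (80.5%), whereas knockout-only sites were in all 4 control lists in 39.9% and in Trib1_WT only in 17.4% of cases.

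Read library by library, knockout-only sites leaned to the controls of their own experiment. They were called in 76.5% and 79.0% of cases in the Trib1_WT lists and in 53.3% and 55.5% in the AAV_Null lists. The means were 77.7% ± 1.74 and 54.4% ± 1.54 (SD, n = 2 each), a difference of 23.3 percentage points, for which the exact permutation test gave p = 0.333. It was 14.8 points with lists of equal length and 15.4 points without Trib1_LSKO replicate 1. Trib1_WT lists also called more than AAV_Null lists over all sites, by 6.66 points (49.6% against 42.9%), and at shared sites, by 9.06 points (88.8% against 79.7%). Overexpression-only sites were called in 8.79% and 8.47% of cases in Trib1_WT and in 8.09% and 8.61% in AAV_Null. Here the means of 8.63% ± 0.23 and 8.35% ± 0.365 differed by 0.28 points, the groups overlapped, and p was 0.667 in the exact permutation test. That difference was -2.09 points with lists of equal length, so its sign depends on the setting.

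Knockout-only sites that were present in all 4 control lists also ranked lower in Trib1_LSKO than in Trib1_WT. At these 1753 sites the median difference between the mean Trib1_LSKO and the mean Trib1_WT percentile was -11.3 points (interquartile range -18.7 to -4.9). Both Trib1_LSKO values lay below both Trib1_WT values at 1024 of them (58.4%) and above at 60 (3.42%). At the 24223 shared sites in the same control state the median was -2.0 points, with 36.0% below and 19.5% above. These knockout-only sites had medians of 53.5 and 57.5 in Trib1_WT, 38.5 and 46.4 in Trib1_LSKO and 49.0 and 52.9 in AAV_Null. At the 763 knockout-only sites called in Trib1_WT only, the median difference was -6.7 points, against 7.5 points at the 2057 shared sites in that state. The knockout-only sites had to be missing from AAV_Cebpa, a condition that does not involve the Trib1_WT lists. Both control states, however, required a peak in both Trib1_WT lists, for knockout-only and shared sites alike. The classes also differ in strength, and the part of strength in these differences was not tested.

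The ranks of shared sites differed between the perturbed groups by more than between replicates. The median absolute difference of group mean percentiles at the 33870 sites was 8.8 points, against 5.8 points between the Trib1_LSKO replicates and 5.8 between the AAV_Cebpa replicates. Spearman's rho over these sites, given as a description, was 0.929 between the Trib1_LSKO lists, 0.953 between the AAV_Cebpa lists and 0.729 to 0.795 across the groups. The groups did not overlap at 6022 sites with Trib1_LSKO higher (17.8%) and at 14610 with AAV_Cebpa higher (43.1%). This split depended on the percentile used. With percentiles taken again among the shared sites alone, 11165 sites (33.0%) were higher in Trib1_LSKO and 10015 (29.6%) in AAV_Cebpa, and the median absolute difference was 9.4 points. That ranking gives every list the same mean percentile over these sites, so it cannot show an overall gain in either group. The part of list length in the split was not tested. Differences of over 20 points were found at 1654 sites towards Trib1_LSKO and 5849 towards AAV_Cebpa with the list percentiles, and at 3862 and 3969 with the percentiles among shared sites.

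The ranks were also compared with those in the control lists, within and between the experiments. The parts of experiment and treatment in the ranking were not computed. At the 24223 sites called in all 8 lists, ranked again among those sites, rho between Trib1_WT and AAV_Null lists was 0.816 to 0.862. Between Trib1_LSKO and AAV_Cebpa lists it was 0.795 to 0.847, and between Trib1_WT and AAV_Cebpa lists 0.677 to 0.712. It was 0.711 to 0.774 between Trib1_LSKO and AAV_Null lists and 0.595 to 0.672 between AAV_Null and AAV_Cebpa lists. The order of sites in Trib1_LSKO was thus nearer to AAV_Cebpa than that of Trib1_WT was, without overlap of the ranges, and it was farther from AAV_Null than Trib1_WT was. The SD over sites of the difference in group mean percentile was 13.4 points for Trib1_LSKO minus Trib1_WT, 23.6 for AAV_Cebpa minus AAV_Null, 14.6 for Trib1_WT minus AAV_Null and 16.0 for Trib1_LSKO minus AAV_Cebpa. The shift from AAV_Null to AAV_Cebpa was the widest of the 4. These groups also differed in relative depth, at 1.0 and 1.17 in AAV_Null and 1.85 and 2.27 in AAV_Cebpa, and the part of depth in the shift was not tested.

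The shift of a site against the controls of its experiment was compared between the experiments, which share no list. Over the 24223 sites, Trib1_LSKO minus Trib1_WT and AAV_Cebpa minus AAV_Null had a Pearson correlation of 0.579 and a Spearman correlation of 0.499, with a slope of 0.329 points in the first per point in the second. With 1 library per group, r ran from 0.38 to 0.604 over the 16 combinations. Within bins of 20 points of the mean control percentile, r was 0.638 in the weakest sites, then 0.56, 0.497, 0.481, and 0.474 in the strongest. On autosomes r was 0.58. The sites in each correlation come from the same libraries and are not independent replicates, so no p is given.

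Sites that ranked far higher or lower with the C/EBPα vector tended to rank the same way in Trib1_LSKO. At the 4113 sites with AAV_Cebpa over 20 points above AAV_Null, the median of Trib1_LSKO minus Trib1_WT was 11.9 points (interquartile range 1.8 to 25.1), and it was above 0 at 80.0% of them. At the 4171 sites with AAV_Cebpa over 20 points below, the median was -7.7 points (-13.4 to -2.5), and 17.2% were above 0. AAV_Cebpa lay above AAV_Null without overlap at 7477 sites. Of these, 3514 (47.0%) also had Trib1_LSKO above Trib1_WT without overlap, and 985 (13.2%) had it below. AAV_Cebpa lay below AAV_Null at 9970 sites, of which 685 (6.87%) had Trib1_LSKO above and 4450 (44.6%) below. Over all 24223 sites the shares were 22.2% above and 31.1% below.

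**Figure D4:**
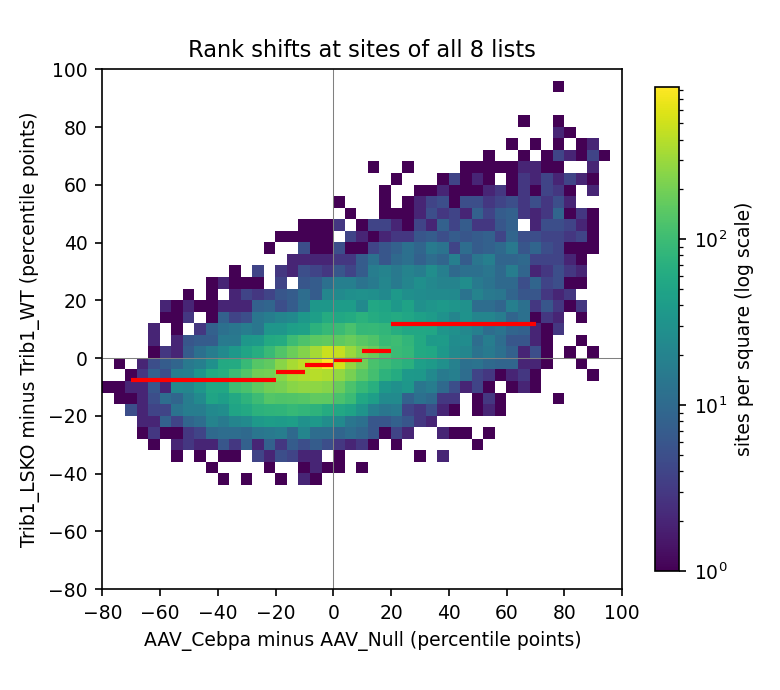
Difference between Trib1_LSKO and Trib1_WT (vertical) against that between AAV_Cebpa and AAV_Null (horizontal), in percentile points of group means among the 24223 sites of all 8 lists. Colour gives sites per square of 4 by 4 points on a log scale, and red lines give the median vertical value within bins of the horizontal one (the outer bins, drawn to 70 points, hold all sites beyond 20 points), from -7.7 to 11.9.

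The 5 strongest shared sites were chosen by their mean percentile in the 4 perturbed lists. The site chr1:90175745-90175970 ranked first in all 4 perturbed lists, where peaks of equal signal share a rank. The neighbouring site chr1:90174046-90174253 ranked 2 in both Trib1_LSKO lists and 2 and 3 in the AAV_Cebpa lists. Between them, chr1:90174892-90175101 ranked 4 and 5 in Trib1_LSKO and 3 and 9 in AAV_Cebpa, with percentiles of 96.5 and 96.9 in AAV_Null and 99.7 and 99.8 in Trib1_WT. The other 2 of the 5 strongest were chr6:138088530-138088756, with ranks of 5 and 2 in Trib1_LSKO and 8 and 23 in AAV_Cebpa, and chr1:90110259-90110465, with ranks of 6 and 8 and of 14 and 16. All 5 were called in every control list.

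Among knockout-only sites, the strongest was chr17:39984685-39984890. It ranked 3 and 4 in the Trib1_LSKO lists, and it had percentiles of 100 in Trib1_WT replicate 1 and of 100 and 99.9 in the AAV_Null lists. Trib1_WT replicate 2 and both AAV_Cebpa lists held no peak there, and the nearest AAV_Cebpa peak was 802930 bp away. A site among the strongest in 5 lists was therefore missing from 3 others, 1 of them a control of the same experiment. Repeats and other artefact-prone regions were not masked. The next 4 knockout-only sites had an AAV_Cebpa peak close by. These were chr1:90184744-90184966 (percentiles 99.7 and 99.9 in Trib1_LSKO, nearest AAV_Cebpa peak 666 bp from its centre), chr16:87612539-87612744 (99.1 and 99.0, 309 bp), chr17:24358321-24358526 (97.9 and 98.2, 224 bp) and chr17:80337752-80337963 (96.1 and 97.5, 238 bp). At both of these sites on chromosome 17, Trib1_WT replicate 1 held no peak and replicate 2 had percentiles of 98.6 and 98.5. At the site on chromosome 16, AAV_Null replicate 1 had 98.6 and replicate 2 held no peak.

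The strongest overexpression-only site, chr7:35905237-35905462, ranked 5 and 2 in the AAV_Cebpa lists. No other list held a peak there, and the nearest Trib1_LSKO peak was 1048 bp from its centre. The vector of this group carries a C/EBPα coding sequence, and whether vector DNA aligned at this site was not tested. The next sites were chr16:87612851-87613064 (percentiles 99.1 and 99.2 in AAV_Cebpa, nearest Trib1_LSKO peak at 313 bp), chr13:34373051-34373256 (97.0 and 99.2, 253 bp) and chr15:59490004-59490223 (96.6 and 99.0, 416 bp). The fifth, chrX:166413633-166413851 (95 and 99.7), had its nearest Trib1_LSKO peak at 3436 bp. The knockout-only site on chromosome 16 that starts at 87612539 and the overexpression-only site that starts at 87612851 are next to each other, so a strong region was called at other positions in the 2 groups and counted once in each class. The AAV_Null replicates differed likewise: replicate 1 held only the first (percentile 98.6) and replicate 2 only the second (97.5).

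The share of private sites with such a neighbour was higher at higher percentiles, although most sites with a neighbour were not among the strongest. A peak of the other group lay within 500 bp of 458 knockout-only sites (10.4%) and of 577 overexpression-only sites (3.67%). Among knockout-only sites the share was 7.52% at mean percentiles of 0 to 50, 18.4% at 50 to 90 and 63.2% (12 of 19) at 90 to 100. Among overexpression-only sites it was 2.37%, 6.27% and 22.6% (21 of 93). Without these sites, 3938 knockout-only and 15133 overexpression-only sites remained. At shared sites the called position hardly differed: the median distance between peak centres was 12 bp for each Trib1_LSKO and AAV_Cebpa pair, 12 bp between the Trib1_LSKO lists and 10 bp between the AAV_Cebpa lists. From 94.9% to 96.7% of these pairs of centres were within 50 bp.

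The strongest sites within the main control states were also read one by one. Of knockout-only sites in all 4 control lists, the strongest after the one on chromosome 1 were chr19:23143126-23143339, with percentiles of 90.1 and 92.8 in Trib1_LSKO, 91.7 and 95.5 in Trib1_WT and 89.0 and 82.5 in AAV_Null, and chr6:143479359-143479587, with 90.1 and 92.4 in Trib1_LSKO and 94.9 to 95.6 in the control lists. The nearest AAV_Cebpa peaks were at 1773 and 289 bp. Of those in Trib1_WT only, chr10:60140185-60140394 had percentiles of 93.7 and 91.3 in Trib1_LSKO and 93.8 and 89.7 in Trib1_WT, and its nearest AAV_Cebpa peak was 46848 bp away. At chr14:114332800-114333007 (90.1 and 92.7 in Trib1_LSKO) and chr5:77531907-77532127 (90.1 and 90.4) the same distance was 301 and 1861 bp. These 3 sites were called in all lists of flox/flox mice and in no list of wild-type mice.

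Knockout-only sites without any control peak were weaker, and the 3 strongest all had an AAV_Cebpa peak within 300 bp. They were chr10:17996035-17996234 (89.8 and 94.1 in Trib1_LSKO, 222 bp), chr13:105431175-105431390 (76.8 and 85.1, 289 bp) and chr12:43536438-43536650 (73.7 and 78.6, 283 bp). The peak next to the first of them belongs to chr10:17996257-17996482, the strongest overexpression-only site called in all 4 control lists, with 87.9 and 89.2 in AAV_Cebpa and 58.7 to 89.8 in the controls. The next in that state were chr6:120787274-120787488 (86.1 and 88.2 in AAV_Cebpa, 25.4 to 42.7 in the controls) and chr4:19945500-19945708 (86.9 and 86.5, 73.0 to 77.2 in the controls). Of overexpression-only sites called in AAV_Null only, chr7:27724408-27724614 had percentiles of 97.8 and 96.8 in AAV_Cebpa and 98.2 and 98.1 in AAV_Null, and the nearest Trib1_LSKO peak was 25689 bp away. The next were chr16:16224610-16224820, with 85.2 and 91.7 in AAV_Cebpa and 69.0 and 60.4 in AAV_Null, and chr10:111013125-111013344, with 78.8 and 91.6 and with 18.4 and 31.3. The site on chromosome 7 was as strong with empty vector as with C/EBPα, and only lists of wild-type mice held it.

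Shared sites with the widest rank differences split by their controls. The 5 sites ranked highest in Trib1_LSKO relative to AAV_Cebpa stood at percentiles of 62.6 to 96.7 in Trib1_WT. At chr5:87154149-87154349 Trib1_WT had percentiles of 93.4 and 90, Trib1_LSKO 84.3 and 92.0, AAV_Null 58.2 and 74.1 and AAV_Cebpa 5.9 and 15. At chr14:66355078-66355301 they were 96.7 and 95.1 in Trib1_WT, 86.1 and 89.3 in Trib1_LSKO and 5.9 and 30.1 in AAV_Cebpa, with no peak in AAV_Null. The flox/flox lists stood above the wild-type lists with or without Cre at both sites, and at the first AAV_Null also stood above AAV_Cebpa. The others were chr4:109075257-109075504 (group means 88.1 in Trib1_LSKO and 18.7 in AAV_Cebpa), chr4:4473975-4474199 (70.5 and 2.7) and chr19:26132484-26132745 (74.5 and 7.5). In AAV_Null the first of these had percentiles of 78.9 and 63.5, the second no peak, and the last 21.6 in replicate 1 alone.

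The 5 sites ranked highest in AAV_Cebpa relative to Trib1_LSKO were near the weak end of every other list that held them. At chr10:42689219-42689448 the percentiles were 98.1 and 99.4 in AAV_Cebpa and 18.2 and 4.9 in Trib1_LSKO, and no control list held a peak. At chr11:53903779-53903998 they were 87.9 and 90.4 in AAV_Cebpa and 2.8 and 4.9 in Trib1_LSKO, again with no control peak. At chr15:33426401-33426689 AAV_Cebpa had 89.0 and 95.3, Trib1_LSKO 6.2 and 7.7, Trib1_WT 7.3 and 5.6 and AAV_Null replicate 1 3.5. The last 2 were chr3:122290244-122290456 (group means 89.0 in AAV_Cebpa and 3.9 in Trib1_LSKO) and chr1:52614942-52615159 (90.4 and 5.5). The highest control percentile at any of the 5 was 18.9, in AAV_Null replicate 2 at the site on chromosome 3. These sites were chosen for their difference, and their values are a description.

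**Figure D5:**
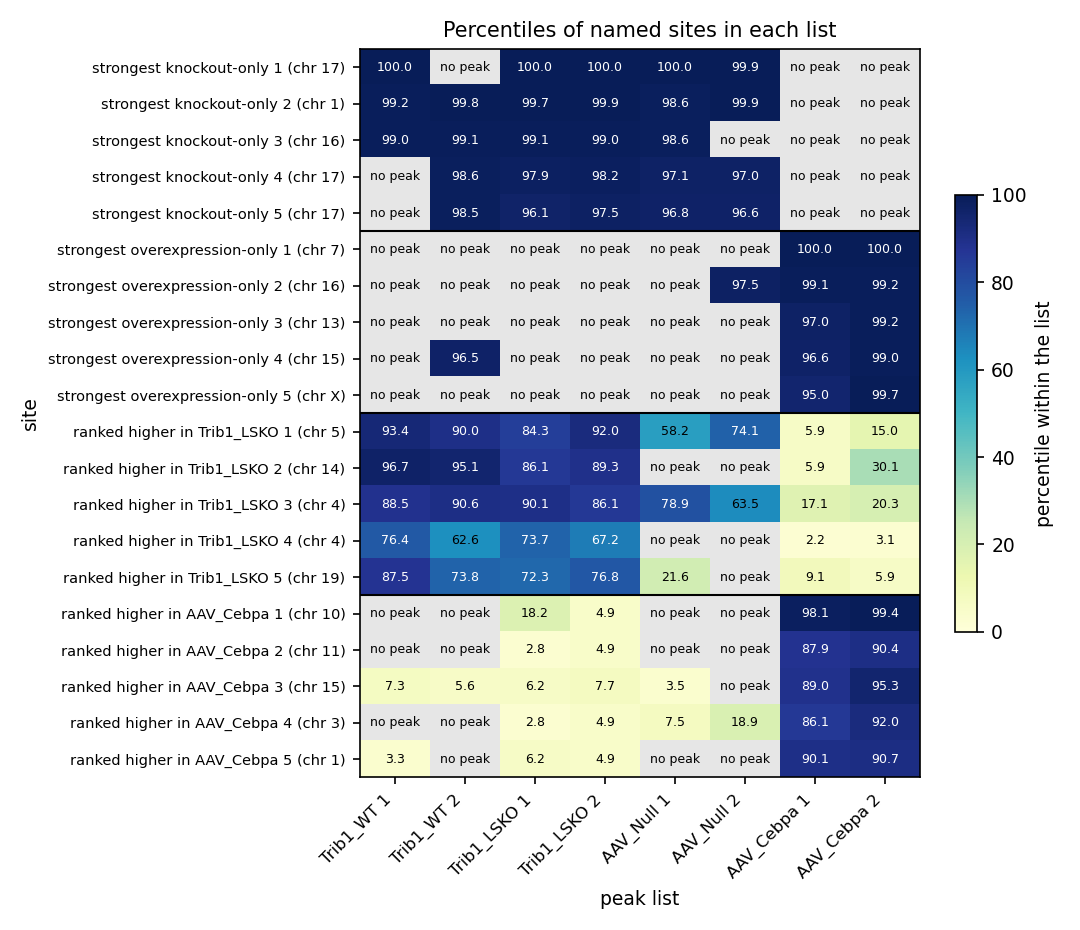
Percentile within each of the 8 lists at the 5 strongest knockout-only and overexpression-only sites and the 5 shared sites with the widest rank difference in each direction, by list (columns), with grey for no peak. Sites ranked higher in AAV_Cebpa had percentiles of 2.8 to 18.2 in Trib1_LSKO, and sites ranked higher in Trib1_LSKO stood at 62.6 to 96.7 in Trib1_WT.

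Private sites lay near shared ones to a differing extent. The median distance to the closest shared site on the same chromosome was 9.4 kb for knockout-only sites, 13.7 kb for overexpression-only sites and 14.0 kb for sites called in 1 perturbed list, leaving out chromosome Y, which had no shared site. Within 10 kb of a shared site were 51.3%, 42.0% and 41.5% of them. On chromosome X, the class of overexpression-only sites held 667 sites, or 4.25% of the class, against 730 (2.16%) of the shared sites, a ratio of 1.97. The corresponding ratio was 0.686 for knockout-only sites (65 sites). With lists of equal length these ratios were 1.37 and 1.11, so the second changed sides of 1. Sites private to AAV_Null among the controls had a ratio of 1.59 and those private to Trib1_WT 0.995. Of the 667 overexpression-only sites on X, 537 (80.5%) were in no control list, the same share as in the whole class, and 19 (2.85%) were in AAV_Null only. All 9 knockout-only sites on Y were called in both Trib1_WT lists and in no AAV_Null list, so they go with the experiment.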

How the data were processed

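ChIP-seq peak lists from 8 mouse liver libraries, 2 in each of 4 groups, were used as deposited by the authors, with 1 list per library. Bowtie, HOMER and build mm9 are named, per the submitters' processing notes. Versions, an input library, the threshold and the handling of duplicates were not given in the sources used here. The deposited signal per peak, the authors' own value, was a whole multiple of 1 step per list within 0.051 for 100.0% of peaks, and the inverse of that step was taken as relative depth. Absolute depth is unknown. The weakest peak held 7 to 12 tags. Signal was used only as a percentile within its list. Replicate lists shared 1.78% to 2.3% of exact positions, so none was a copy.

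Peaks were joined at 1 bp of overlap with Python 3.11.15, numpy 2.4.6 and pandas 2.3.3, and exact permutation tests used scipy 1.17.1. The joining was tested on simulated lists whose sites lay too far apart to meet, so sites close to each other were not covered. With 2 libraries against 2, no p can fall below 0.333, so single sites were not tested. Sites were named by rule: the 5 strongest of each class, the 3 strongest per main control state and the 5 widest rank differences each way. The classes, this rule and the comparisons were chosen with earlier results of these data known. Alternatives were 100 bp of overlap, the strongest 50%, equal lengths, a common signal minimum, autosomes and each library left out, with exclusion of neighbours and the checks on correlated shifts added after seeing the data. Gene lists, markers and motifs need genes or sequence of mm9, which were not used here.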

Additional observations from a re-analysis of the deposited data

How the results depend on the processing

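Of 80 alternative values, 4 changed sign and 12 others, all counts of sites, moved by over 1.5 times. The other 64 kept their direction, and for counts their size within 1.5 times, but differences between groups among them varied more: the difference in peak number ran from 7990.5 to 28820.5 without single libraries, and that in the share of knockout-only sites called from 14.8 points (equal lengths) to 28 (the second setting below). That for overexpression-only sites ran from 0.0223 to 1.62 points without single libraries. With the strongest 50% of each list, 18379 sites were shared, 2131 knockout-only and 7828 overexpression-only. With sites taken from the strongest 50% and called absent only if missing from the whole list, the numbers were 18507, 870 and 3479. Both settings use fewer peaks. With equal lengths, 7464 sites were knockout-only and 9095 overexpression-only. The difference between Trib1_WT and AAV_Null in the share of overexpression-only sites called, 0.28 points, was -0.409, -0.848 and -2.09 points under these 3 settings and -0.76 with a common signal minimum of 5.1 in perturbed and 6.1 in control lists, where the cause was not tested. Leaving out 1 library gave 5155 to 9768 knockout-only and 18022 to 33692 overexpression-only sites and relaxes either the peaks a class needs or those it must lack. The correlation of shifts was 0.493 to 0.593 in the same way, and 33870 shared sites became 34597 to 37219. Overexpression-only sites outnumbered knockout-only sites in every setting run.

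With the replicate number as a block, the paired differences were 18405.5 peaks, 23.3 points and 0.28 points, as without it, with exact sign-flip p of 0.5, 0.5 and 1.0, of which 0.5 is the smallest that 2 pairs can give. The labels share only a number: deviations of same-numbered replicates correlated at 0.123 between Trib1_LSKO and AAV_Cebpa, 0.16 between the controls, 0.14 between Trib1_LSKO and Trib1_WT and -0.0671 between AAV_Cebpa and AAV_Null. Depth limits what an absent call shows: a site without a peak may hold signal under the authors' threshold.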

Other observations

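Private sites were spread over the genome with a few dense stretches, chosen here after their values were seen. Of 17652 windows of 100 kb with at least 1 site, 8976 held an overexpression-only and 3521 a knockout-only site, and 258 held 5 or more overexpression-only sites. Chromosome X from 47900001 to 48000000 held 11 overexpression-only sites with 1 shared and 0 knockout-only sites, and chromosome 7 from 14200001 to 14300000 held 11 with 5 shared sites. Chromosome 8 from 33000001 to 33100000 held 10 with 3 shared sites. Knockout-only sites were densest on chromosome 14 from 66300001 to 66400000, with 7 of them, 6 shared and 0 overexpression-only sites. That window also holds the shared site at 66355078, at percentiles of 86.1 and 89.3 in Trib1_LSKO and 5.9 and 30.1 in AAV_Cebpa. Chromosome 1 from 184500001 to 184600000 held 6 knockout-only sites with 1 shared site, and chromosome 16 from 24000001 to 24100000 held 6 with 3 overexpression-only and 6 shared sites.

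Among autosomes, the share of overexpression-only sites relative to that of shared sites was lowest on chromosome 19 (436 sites, ratio 0.77) and chromosome 17 (476, 0.87) and highest on chromosome 18 (630, 1.09). For knockout-only sites it ran from 0.871 on chromosome 11 to 1.13 on chromosomes 2 and 3.

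The Trib1_LSKO replicates were not equally near to AAV_Cebpa. At the sites of all 8 lists, rho was 0.847 and 0.818 for replicate 1 with the AAV_Cebpa lists and 0.81 and 0.795 for replicate 2. With the Trib1_WT lists, rho was 0.854 and 0.836 for replicate 1 and 0.882 and 0.88 for replicate 2. Without replicate 1, the correlation of the shifts was 0.493 in place of 0.579, and without replicate 2 it was 0.57.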
